A study of Homo sapiens with 12 samples.

Results

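Retinoid receptors and retinoic acid target genes were followed in 2 human B-cell lymphoma lines exposed to ST5589, which the labels call a derivative of ST1926 and the series title calls an atypical retinoid. The genes were chosen by symbol: the receptors RARA, RARB, RARG, RXRA and RXRB, and the targets CYP26A1, DHRS3, CRABP2, TGM2 and CD38. These 10 genes are annotated to 19 of the 47231 probes of the array. The study holds 12 one-colour Illumina expression arrays of total RNA in 4 groups of 3: TMD8 under DMSO, the solvent control, TMD8 under 300 nM ST5589, DOHH2 under DMSO and DOHH2 under 300 nM ST5589. TMD8 is an established line from an activated B-cell-like diffuse large B-cell lymphoma, and DOHH2 is an established line from a germinal centre B-cell lymphoma. No genetic change was made to either line, and no arm with a classic retinoid such as all-trans retinoic acid is among the 4 groups. The sources used here give no exposure time and do not say whether the 3 arrays of a group stem from separate cultures. The p-values therefore rest on array-to-array spread, and that spread may be technical.

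Retinoic acid acts through nuclear receptors. A retinoic acid receptor (RAR) pairs with a retinoid X receptor (RXR) on DNA, holds corepressors there without ligand, and exchanges them for coactivators when retinoic acid binds. In many cell types this turns on a small set of direct targets, among them CYP26A1, which degrades retinoic acid, and RARB, a receptor gene that is itself a target, so that a rise of these genes is the usual sign of classic retinoid action. Atypical retinoids are compounds built on a retinoid scaffold whose growth-inhibiting effects are described as largely separate from these receptors.

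The promoters of RARB and CYP26A1 are shown because they hold the sequence through which the RAR-RXR pair classically acts, a direct repeat of 2 short half-sites separated by 5 bases. The half-sites searched were the consensus AGGTCA, the form AGTTCA, the form GGGTCA and the form GGTTCA, in any pairing, on both strands, in windows from 250 bases before to 50 bases after each transcript start that the RefSeq table (GRCh38.p14) lists for a gene, of which a gene can have several. For 9 of the 10 genes, all but TGM2, the sequences used here held 19 such windows. The repeat with a 5-base spacer lay in 2 of those windows, 1 of RARB and 1 of CYP26A1, and in 31 of all 35116 windows, which is 0.0883%. Repeats with spacers of 1 base and 2 bases, searched with the same half-sites, lay in 0 of the 19 windows and in 0.131% and 0.0399% of all windows. The 250 bases before the transcript start of these 2 windows, both starts lying inside the gene as annotated, follow, 5′ to 3′ on the plus strand, with the repeat in capitals.
RARB, chr3:25428013-25428262: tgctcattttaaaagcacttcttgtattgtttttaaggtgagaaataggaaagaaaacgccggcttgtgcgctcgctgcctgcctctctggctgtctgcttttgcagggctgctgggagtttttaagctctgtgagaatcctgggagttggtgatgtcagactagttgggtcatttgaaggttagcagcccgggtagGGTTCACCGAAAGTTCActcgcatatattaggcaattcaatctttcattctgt
CYP26A1, chr10:93073643-93073892: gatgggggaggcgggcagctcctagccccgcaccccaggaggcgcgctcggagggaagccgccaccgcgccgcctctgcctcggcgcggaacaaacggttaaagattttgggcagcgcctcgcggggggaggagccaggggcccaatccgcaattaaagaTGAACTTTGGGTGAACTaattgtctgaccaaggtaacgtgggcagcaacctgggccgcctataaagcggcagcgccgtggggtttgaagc
In RARB the repeat lay on the plus strand and ended 36 bases before the start, and in CYP26A1 it lay on the minus strand, 73 bases before the start. Neither repeat held the consensus AGGTCA: that of RARB joined GGTTCA to AGTTCA, and that of CYP26A1 joined AGTTCA to AGTTCA. The counts of windows thus depend on the forms admitted to the search and are not a test. A match of letters is a description of the sequence, and binding was not measured on these arrays.

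The background mode of the raw intensities ran from 85.8 to 106 over the 12 arrays, and 39.2% to 49.1% of the probes of an array were above its background. A probe counted as above background where its raw intensity passed the mode of the array plus 2.33 times the spread of the values below that mode, a threshold estimated from the array because the files used here hold no detection p-values. The 11 probes brighter than 2000 units in TMD8 that were not above background on the other 5 DOHH2 arrays were all above it on array 2 of DOHH2 under ST5589, at a median of 5.03% of their TMD8 signal, so results that rest on DOHH2 are also given without that array where it changes them. Of the B-cell markers, all 4 tested were above background on all 12 arrays, as were all 5 markers of the activated B-cell-like type. All 5 of the latter were lower in DOHH2 than in TMD8 (limma, adjusted p under 0.05 each; median log2 difference -1.25). Of the 5 germinal centre markers, 2 (MME and STMN1) were higher in DOHH2 and 3 lower. The tested MME probe was above background on the DOHH2 arrays alone. BCL6 averaged 9.35 on the log2 scale in TMD8 under DMSO and was above background on 0 of 3 DOHH2 arrays under DMSO. LMO2 averaged 10.84 in TMD8 and 6.56 in DOHH2. The 3 lower markers go against the labelled origin of DOHH2, whereas MME, STMN1 and the activated B-cell-like markers go with it. Line identity could not be checked further. Of 18 markers of T and NK, myeloid, and stromal or epithelial cells, 8 were tested and 1, FCGR3A of the myeloid list, was above background on all 12 arrays. COL1A1 was above it on 10 arrays, CD14 and CD2 on 9 each, and the other tested markers on 5 to 7. CD3E of T cells and CSF1R of myeloid cells were above it on none. Each line lay on a chip of its own, and on each chip the DMSO arrays and the ST5589 arrays held separate blocks of places, so line and chip, and treatment and place, cannot be told apart.

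Only RARA and RXRB were above background on all 12 arrays, and RARB was above it on none. Of the 19 probes, 6 were above background on 0 arrays, and 9 of the 10 genes had a probe that was above background on all 3 arrays of at least 1 group and were tested. A gene was represented by its brightest such probe. All values are log2 normalized intensities unless another scale is named, on which the lowest signal above background ran from 6.12 to 6.24 over the arrays. The levels of different probes are not compared with each other, since each probe has its own brightness.

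**Figure D1:**
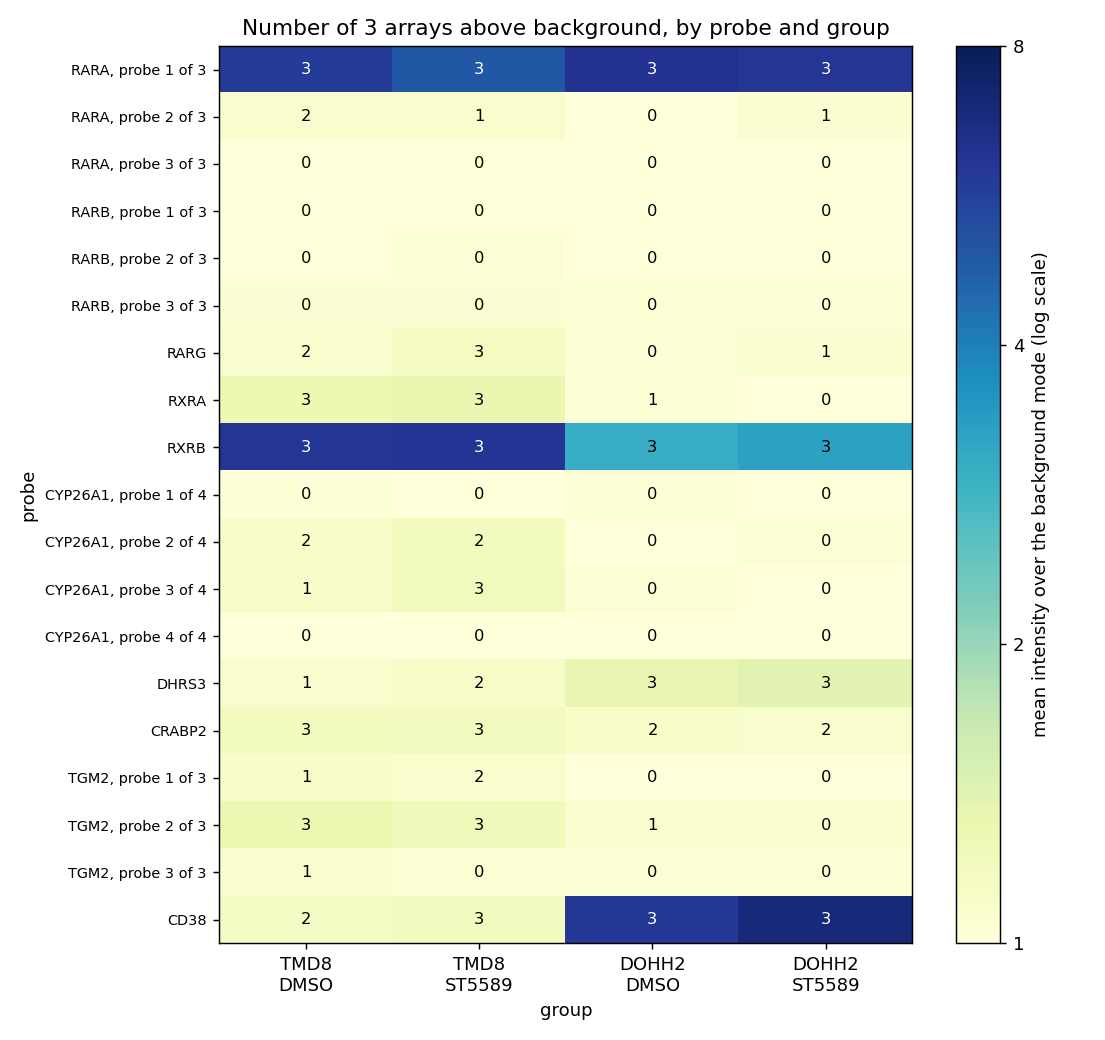
Number of the 3 arrays of each group (columns) on which each of the 19 probes (rows, by gene) was above background, printed in each cell. The colour is the mean raw intensity of the group as a multiple of the background mode, on a log scale. One RARA probe, RXRB and, in DOHH2, CD38 are dark, whereas the 3 RARB probes hold 0 in every group.

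Among the RARs, the receptors that bind all-trans retinoic acid, RARA was clearly expressed in both lines. Its level was 8.81, 9.04 and 8.91 in TMD8 under DMSO and 8.74, 8.73 and 8.83 under ST5589. It was 8.83, 9.09 and 9.33 in DOHH2 under DMSO and 9.07, 9.16 and 9.17 under ST5589. The treated TMD8 arrays reached into the range of their controls, and in DOHH2 all treated arrays lay inside the range of the controls. The log2 change was -0.15 ± 0.11 (SE, n = 3 against 3; limma adjusted p = 0.879) in TMD8 and 0.05 ± 0.11 (limma adjusted p = 0.967) in DOHH2. The other two RARA probes were above background on 4 and 0 of the 12 arrays.

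RARB, the receptor gene whose own promoter carries the repeat shown above, gave no signal over background. Its 3 probes lay between 0.909 and 1.10 times the background mode on all 12 arrays. The brightest of them read 6.06, 6.02 and 6.01 in TMD8 under DMSO and 5.98, 6.13 and 5.97 under ST5589, and 5.97, 6.09 and 6.07 in DOHH2 under DMSO and 5.96, 6.03 and 5.95 under ST5589. Treated and control readings overlapped in both lines, and none of the 12 was above the background of its array. A second RARB probe had non-overlapping groups in DOHH2, 5.78 at most under DMSO and 5.89 at least under ST5589, again below background on all arrays. A rise of RARB to a level these probes could detect was therefore not seen with ST5589 in either line, whereas a change below background was not detectable.

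RARG, the third RAR, was close to background throughout. It read 5.77, 6.26 and 6.19 in TMD8 under DMSO, with 2 of 3 arrays above background, and 6.27, 6.23 and 6.21 under ST5589, with 3 of 3 above. The TMD8 groups overlapped, and the log2 change was 0.16 ± 0.13 (SE, n = 3 against 3; limma adjusted p = 0.902). In DOHH2 it read 6.10, 5.90 and 5.98 under DMSO and 5.91, 6.02 and 6.34 under ST5589. Those groups also overlapped, with 0 and 1 of 3 arrays above background, so no fold is given there (limma adjusted p = 0.947).

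The RXRs are the obligate partners of the RARs and also pair with several other nuclear receptors. RXRB read 8.47, 9.39 and 9.03 in TMD8 under DMSO and 9.21, 9.02 and 9.09 under ST5589. In DOHH2 it read 8.20, 7.89 and 7.90 under DMSO and 7.85, 8.10 and 8.41 under ST5589. Treated and control arrays overlapped within each line, and every TMD8 array was higher than every DOHH2 array. The log2 change with ST5589 was 0.15 ± 0.20 (SE, n = 3 against 3; limma adjusted p = 0.930) in TMD8 and 0.12 ± 0.20 (limma adjusted p = 0.956) in DOHH2. RXRB was the least precisely measured of the tested receptors and targets chosen here, with an SD of 0.46 among the TMD8 controls.

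RXRA was weakly but steadily above background in TMD8, at 6.40, 6.49 and 6.39 under DMSO and 6.43, 6.57 and 6.43 under ST5589. These groups overlapped, with a log2 change of 0.05 ± 0.13 (SE, n = 3 against 3; limma adjusted p = 0.974). In DOHH2 it read 5.71, 5.98 and 6.32 under DMSO and 5.78, 6.06 and 6.02 under ST5589. Only 1 of 3 DOHH2 control arrays and 0 of 3 treated arrays were above background, so RXRA was near the limit of measurement in that line (limma adjusted p = 0.971 for treatment).

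CYP26A1, the cytochrome P450 that hydroxylates retinoic acid for breakdown, is the target most often used to read out retinoid action, and its level stayed at or just over background. The tested probe read 6.06, 6.09 and 6.26 in TMD8 under DMSO and 6.26, 6.38 and 6.26 under ST5589. In DOHH2 it read 5.99, 6.13 and 5.94 under DMSO and averaged 5.95 ± 0.08 (SD, n = 3) under ST5589, with 5.86 as the lowest array. In TMD8 the highest control array reached the treated range, with 1 of 3 control arrays and 3 of 3 treated arrays above background. The log2 change in TMD8 was 0.16 ± 0.09 (SE, n = 3 against 3; 95% confidence interval -0.03 to 0.35; limma adjusted p = 0.792), and the upper end of that interval is 1.28-fold. All 6 DOHH2 readings were below background. A second CYP26A1 probe was above background on 2 of 3 arrays of either TMD8 group and on 0 of 3 of either DOHH2 group. Its TMD8 groups overlapped, with a log2 change of 0.13 ± 0.09 (SE, 95% confidence interval -0.07 to 0.33) in a fit of all named probes. Over all 4 CYP26A1 probes and all 12 arrays, the raw intensity lay between 0.885 and 1.27 times the background mode.

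DHRS3, a short-chain reductase that turns retinaldehyde back to retinol and is induced by retinoic acid in many cell types, was above background on every DOHH2 array. It read 6.26, 5.95 and 6.08 in TMD8 under DMSO and 6.14, 6.16 and 6.08 under ST5589, and 6.72, 6.58 and 6.53 in DOHH2 under DMSO and 6.77, 6.78 and 6.47 under ST5589. Treated and control arrays overlapped in both lines. The log2 change was 0.03 ± 0.11 (SE, n = 3 against 3; limma adjusted p = 0.985) in TMD8, where 1 of 3 control and 2 of 3 treated arrays were above background. In DOHH2 it was 0.07 ± 0.11 (limma adjusted p = 0.956).

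CRABP2 carries retinoic acid to the RARs in the nucleus. It read 6.32, 6.23 and 6.27 in TMD8 under DMSO and 6.20, 6.32 and 6.25 under ST5589, and 6.15, 6.31 and 6.22 in DOHH2 under DMSO and 6.25, 6.20 and 6.05 under ST5589. All 4 groups overlapped, between 1.05 and 1.21 times the background mode. The log2 change was -0.02 ± 0.08 (SE, n = 3 against 3; limma adjusted p = 0.992) in TMD8 and -0.06 ± 0.08 (limma adjusted p = 0.946) in DOHH2, where 2 of 3 arrays of either group were above background.

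TGM2, the tissue transglutaminase that rises with retinoic acid in myeloid leukaemia cells, read 6.51, 6.34 and 6.43 in TMD8 under DMSO and 6.32, 6.50 and 6.18 under ST5589. All 6 of these readings were above background, and the groups overlapped. The log2 change was -0.09 ± 0.10 (SE, n = 3 against 3; limma adjusted p = 0.924). In DOHH2 it read 6.02, 6.07 and 6.21 under DMSO and 6.12, 6.16 and 6.03 under ST5589, with 1 and 0 of 3 arrays above background (limma adjusted p = 0.998). Another TGM2 probe, below background on all 6 DOHH2 arrays, had lower readings on the 3 treated arrays than on the 3 controls, without overlap.

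CD38, an ectoenzyme of the B-cell surface whose gene is induced by retinoic acid in myeloid leukaemia cells, was the one gene whose tested probe had treated and control arrays that did not overlap in a line; in TMD8 none of the 9 tested genes separated, beside 17.6% of all genes. It read 9.20, 8.95 and 8.92 in DOHH2 under DMSO and 9.28, 9.32 and 9.41 under ST5589. All 3 treated arrays were higher than all 3 controls, a separation that 8.32% of the 11765 tested genes showed in DOHH2 in one direction or the other. The log2 difference was 0.31 ± 0.09 (SE, n = 3 against 3; 95% confidence interval 0.11 to 0.51), a fold of 1.24, with an unadjusted limma p of 0.00581, the 76th lowest of all genes, and a limma adjusted p of 0.90. It therefore did not pass the test, and in bulk RNA the share of cells with CD38 and the RNA per cell cannot be told apart. The raw intensities overlapped before normalization, at 583, 492 and 582 under DMSO and 422, 853 and 675 under ST5589. Without array 2 of DOHH2 under ST5589 the log2 difference was 0.32 (limma adjusted p = 0.701).

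In TMD8, CD38 lay just over background. It read 6.27, 6.11 and 6.17 under DMSO and 6.22, 6.17 and 6.33 under ST5589, with 2 and 3 of 3 arrays above background. The groups overlapped, and the log2 change was 0.06 ± 0.09 (SE, n = 3 against 3; limma adjusted p = 0.947). The log2 change was larger in DOHH2 than in TMD8 by 0.25 ± 0.13, and this difference did not pass (limma adjusted p = 1).

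**Figure D2:**
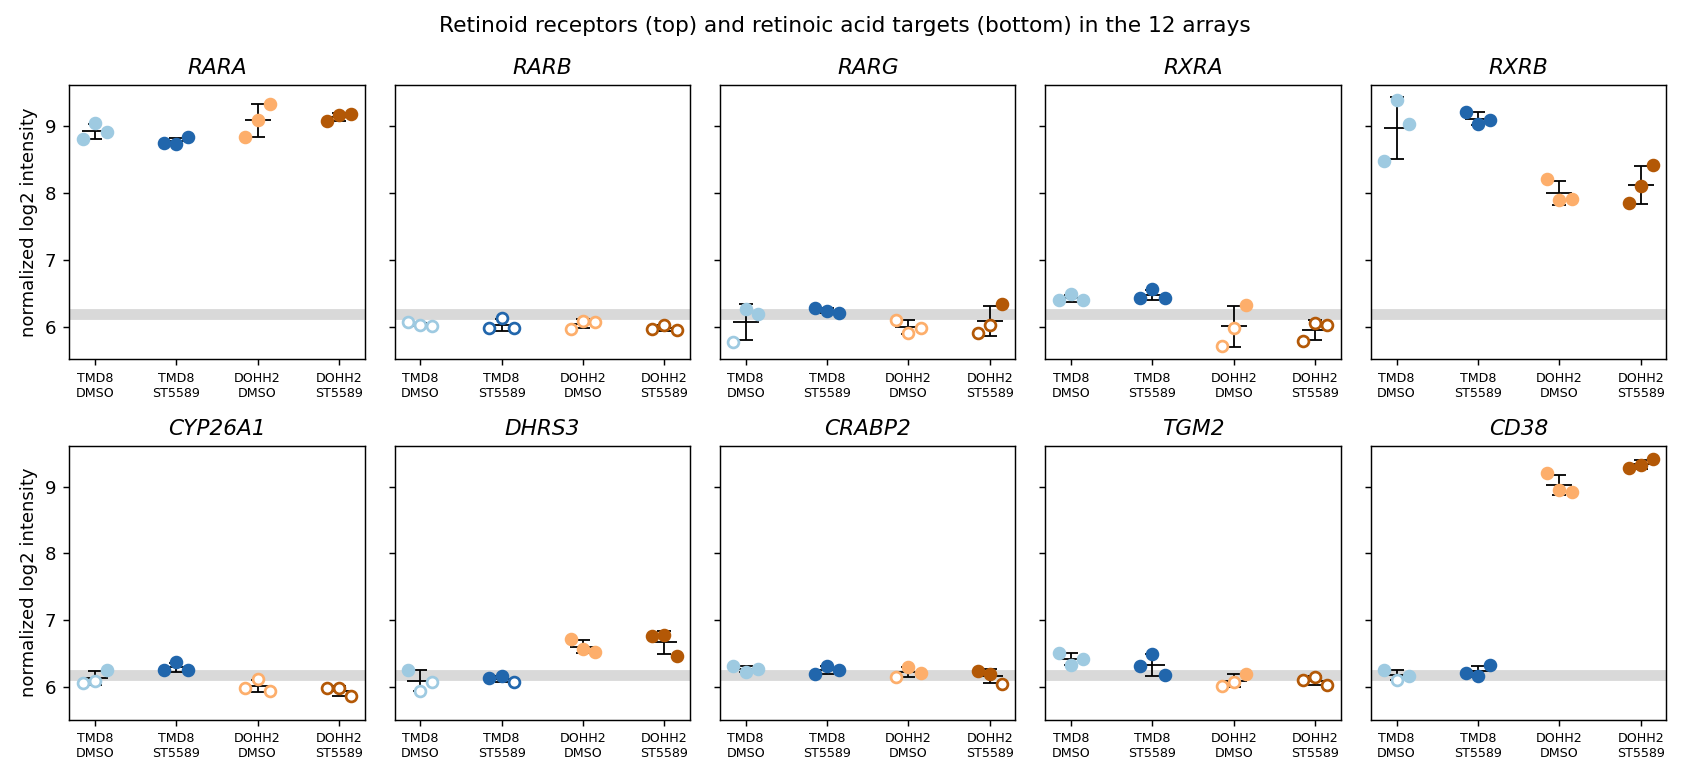
Log2 normalized intensity of the probe of each gene on each array, by group, with bars for the mean ± SD of 3 arrays. Filled points are above the background of their array and open points are not. The grey band spans the lowest signal above background over the 12 arrays (6.12 to 6.24), and RARB is shown by the brightest of its 3 probes. The treated and control points of the probes shown overlap in every panel and line except CD38 in DOHH2.

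None of the tested retinoid receptor and target genes passed the test with ST5589 in either line. In TMD8, 0 of the 9 tested genes were called by limma at an adjusted p under 0.05 and 0 had an unadjusted p under 0.05, beside 0.901% of all genes called. In DOHH2, 0 of 9 were called and 1, CD38, had an unadjusted p under 0.05, beside 0.034% of all genes called. In the mean of both lines, 0 of 9 were called and again 1, CD38, had an unadjusted p under 0.05, beside 0.731% of all genes called. The difference between the 2 effects was called for 0 of 9, with 0 at an unadjusted p under 0.05, beside 0.017% of all genes called by limma. With so few genes called on the whole array, a count of 0 among 9 lies near the background share and does not set these genes apart.

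The intervals give what the arrays could have missed. In TMD8 the 9 log2 changes ran from -0.15 to 0.16 with a median of 0.05, against a median of 0.01 over all genes. The largest, 0.16 each, were those of RARG and CYP26A1, which passed the background filter only through TMD8 under ST5589. The top of this range and the median therefore lean on genes admitted by the treated group. The largest upper end of a 95% confidence interval was that of RXRB, a fold of 1.48. In DOHH2, 5 genes were above background on at least 1 array of each group, RARA, RXRB, DHRS3, CRABP2 and CD38, and their log2 changes ran from -0.06 to 0.31 with a median of 0.07. The largest upper end among them was again that of RXRB, a fold of 1.45. For genes near background these bounds hold for the measured intensity, in which the background compresses a change of the RNA.

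Differences between ST5589 and DMSO arrays were called elsewhere on the array, by limma for 106 of the 11765 tested genes in TMD8 and for 4 in DOHH2. Each treatment had its own block of positions, so whether the compound caused these differences was not tested. AURKA, the mitotic kinase named in the series title, fell by 0.84 ± 0.09 on the log2 scale in TMD8 (SE, n = 3 against 3; limma adjusted p = 3.78e-04). In DOHH2 its log2 change was -0.45 ± 0.09, which was not called (limma adjusted p = 0.215). The title describes these same data, so AURKA is not an independent control. Both the call in TMD8 and that in the mean of the lines were lost under median scaling in place of quantile normalization, where the log2 changes were larger, -1.05 and -0.83, with larger errors (SE 0.24 and 0.17; limma adjusted p = 0.341 and 0.249).

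**Figure D3:**
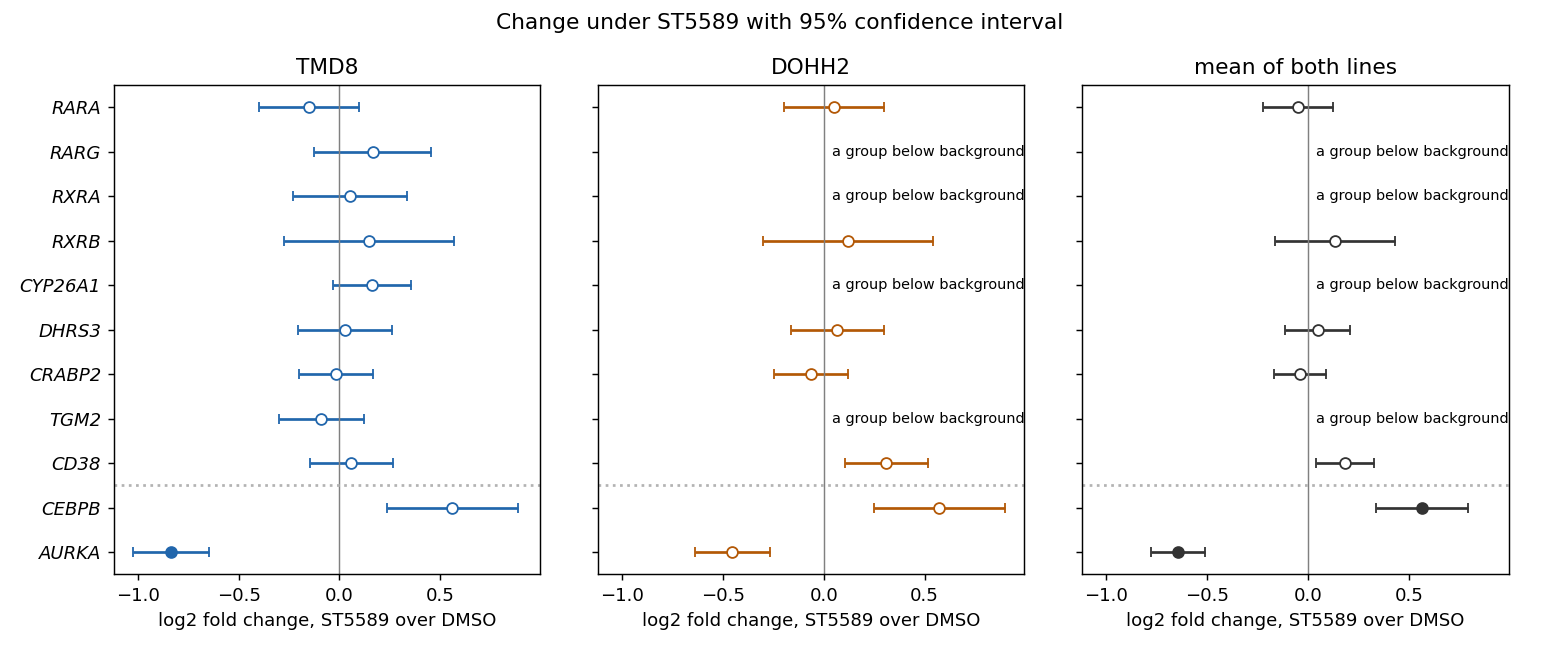
Log2 change under ST5589 against DMSO with its 95% confidence interval, in TMD8, in DOHH2 and as the mean of both lines, for the 9 tested genes and, below the dotted line, CEBPB and AURKA. Filled points passed the limma test at an adjusted p under 0.05, and no value is drawn where a group had 0 of 3 arrays above background. None of the 9 genes has a filled point, and CD38 in DOHH2 lies at 0.31.

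The lines differed from each other far more than treated cells differed from controls. Under DMSO, 5 of the 9 genes differed between DOHH2 and TMD8 by limma at an adjusted p under 0.05, beside 52.4% of all genes; 2 were higher in DOHH2, beside 25.4%, and 3 lower, beside 27%. The same 5 genes had non-overlapping control groups, beside 58% of all genes, so the count is close to what the whole array showed. CD38 was higher in DOHH2, by 2.84 ± 0.09 on the log2 scale (SE, n = 3 against 3; limma adjusted p = 3.01e-11), a fold of 7.16 on background-compressed intensities with 2 of 3 TMD8 control arrays above background. DHRS3 was also higher in DOHH2, by 0.51 ± 0.11 (limma adjusted p = 0.00123). The sizes depended on the background step: over the alternatives CD38 ran from 2.31 to 3.66 and DHRS3 from 0.36 to 0.88, both highest with a normexp offset of 16, and both stayed called.

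RXRA, RXRB and the target TGM2 went the other way. RXRB was lower in DOHH2, with a log2 difference of -0.96 ± 0.20 (SE, n = 3 against 3; limma adjusted p = 8.86e-04). RXRA differed by -0.42 ± 0.13 (limma adjusted p = 0.0157) and TGM2 by -0.33 ± 0.10 (limma adjusted p = 0.0124), each with 1 of 3 DOHH2 control arrays above background. The other TGM2 probes gave -0.22 ± 0.08 and 0.01 ± 0.06 (SE) in a fit of all named probes. Both were above background on 1 of 3 TMD8 control arrays and on 0 of 3 DOHH2 control arrays. The RXRA call was lost without array 2 of TMD8 under DMSO (-0.39; limma adjusted p = 0.0538) and without array 1 of DOHH2 under DMSO (-0.27; limma adjusted p = 0.0706). In the latter case RARA was called, at 0.29 (limma adjusted p = 0.0305). With a normexp offset of 16, RXRA was at -0.83 and TGM2 at -0.59.

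For the remaining genes the order of the lines was not settled. RARA differed by 0.16 ± 0.11 (SE, n = 3 against 3; limma adjusted p = 0.252) and CRABP2 by -0.05 ± 0.08 (limma adjusted p = 0.671), and their groups overlapped. RARG and CYP26A1 were above background on 0 of 3 DOHH2 control arrays (limma adjusted p = 0.658 and 0.291). Ordered by level, the neighbouring groups that lay apart were therefore the lines and not the treatments for RXRA, RXRB, DHRS3 and TGM2, and for CD38 both.

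**Figure D4:**
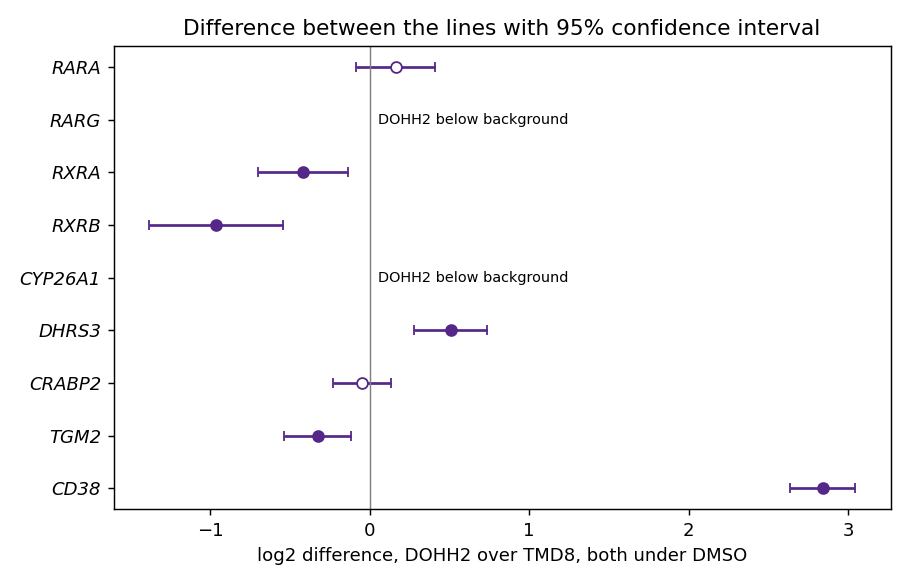
Log2 difference between DOHH2 and TMD8 under DMSO with its 95% confidence interval for the 9 tested genes. Filled points passed the limma test at an adjusted p under 0.05, and no value is drawn where DOHH2 had 0 of 3 control arrays above background. CD38 lies far to the right at 2.84, and RXRB furthest to the left at -0.96.

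The wider retinoid pathway was read in 5 further lists that hold 96 genes, of which 82 had a probe and 50 were tested. With ST5589, 1 of the 50 was called in TMD8, 0 in DOHH2 (limma) and 1 in the mean of both lines, shares of 2%, 0% and 2% beside the shares of all genes given above. Between the lines under DMSO 31 of the 50 differed, 9 higher and 22 lower in DOHH2, a share of 62% beside the 52.4% of all genes.

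The gene called in the mean of both lines was CEBPB, a transcription factor of myeloid differentiation that retinoic acid induces in leukaemia cells. It read 8.32, 8.88 and 8.76 in TMD8 under DMSO and 9.32, 9.05 and 9.26 under ST5589, and 9.28, 9.10 and 9.27 in DOHH2 under DMSO and 9.57, 9.74 and 10.06 under ST5589. All treated arrays were higher than all controls in both lines. It rose by 0.57 ± 0.11 on the log2 scale in the mean of the lines (SE, 6 against 6 arrays; limma adjusted p = 0.0221). The separate values were 0.56 ± 0.15 (limma adjusted p = 0.157) in TMD8 and 0.57 ± 0.15 (limma adjusted p = 0.616) in DOHH2. The call was lost under 7 of 22 alternatives, at limma adjusted p = 0.931 under median scaling, 0.128 with the replicate block and 0.052 without array 2 of DOHH2 under ST5589. It was also lost without array 1 or array 3 of TMD8 under ST5589 and without array 2 or array 3 of DOHH2 under DMSO, with log2 changes of 0.54 to 0.58 and limma adjusted p of 0.057 to 0.0841.

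CEBPB belongs to the list of further genes that retinoic acid induces in other cell types, of which 21 of 40 were tested. In the mean of the lines 1 of these 21 rose and 0 fell by limma, and 17 of the 21 changes were positive with a median of 0.10, against 54.9% positive and a median of 0.01 over all genes. That list holds genes from myeloid and other tissues, and 6 of its 40 genes had no named probe here. Among the 21, CEBPA and ITGAX for example were above background on 0 of 3 arrays of either DOHH2 group. Changes were also positive for 12 of 13 corepressors and coactivators and for 5 of 6 among the further RXR and the RXR partners. They were positive for 6 of 9 genes of retinol uptake, retinoic acid synthesis and transport. Among the retinoid receptors and targets 5 of 9 were positive, near the share of all genes. These counts include genes with a group below background, and the lists were chosen with earlier results of these data known. Whether any list departs from all genes was not tested.

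The gene called in TMD8 was KAT2B, an acetyltransferase that serves as a coactivator of the RARs, in a list of 16 corepressors and coactivators of which 13 were tested. It read 8.84, 8.78 and 8.78 in TMD8 under DMSO and 9.15, 9.28 and 9.17 under ST5589, and 7.77, 7.70 and 7.69 in DOHH2 under DMSO and 7.60, 7.82 and 7.78 under ST5589. The TMD8 groups lay apart, and the DOHH2 groups overlapped. In TMD8 it rose by 0.40 ± 0.08 on the log2 scale (SE, n = 3 against 3; limma adjusted p = 0.0424), and in DOHH2 the change was 0.02 ± 0.08 (limma adjusted p = 0.988). The change in DOHH2 minus that in TMD8 was -0.38 ± 0.12, which was not called (limma adjusted p = 1). The call in TMD8 was lost under 15 of 23 alternatives, among them the omission of any 1 of the 6 TMD8 arrays, of array 2 or array 3 of DOHH2 under DMSO, or of array 2 of DOHH2 under ST5589, and the limma adjusted p ran from 0.0214 to 0.973. Leaving out a single TMD8 array left the log2 change at 0.36 to 0.42, whereas the mean of all kept KAT2B probes gave 0.20 and median scaling 0.23.

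The other lists held no called gene. Of 20 genes of retinol uptake and retinoic acid synthesis and transport, 9 were tested, with a median log2 change of 0.07 in the mean of the lines. The lowest p-values there belonged to RETSAT, a saturase that acts on retinol, at 0.27 ± 0.10 (limma adjusted p = 0.348), and RDH13, a retinol dehydrogenase, at 0.14 ± 0.09 (limma adjusted p = 0.602). Of 7 genes of retinoid storage and breakdown only DGAT1, an acyltransferase that can esterify retinol, was tested, at 0.09 ± 0.12 (limma adjusted p = 0.836). Of 13 genes for a further RXR and the partners of the RXRs, 6 were tested with a median of 0.03. PPARD, a fatty acid sensor, changed by 0.04 ± 0.07 (limma adjusted p = 0.883), and VDR, the vitamin D receptor, was above background on 0 of 6 TMD8 arrays, 1 of 3 DOHH2 controls and 3 of 3 treated DOHH2 arrays (limma adjusted p = 0.929 in DOHH2).

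**Figure D5:**
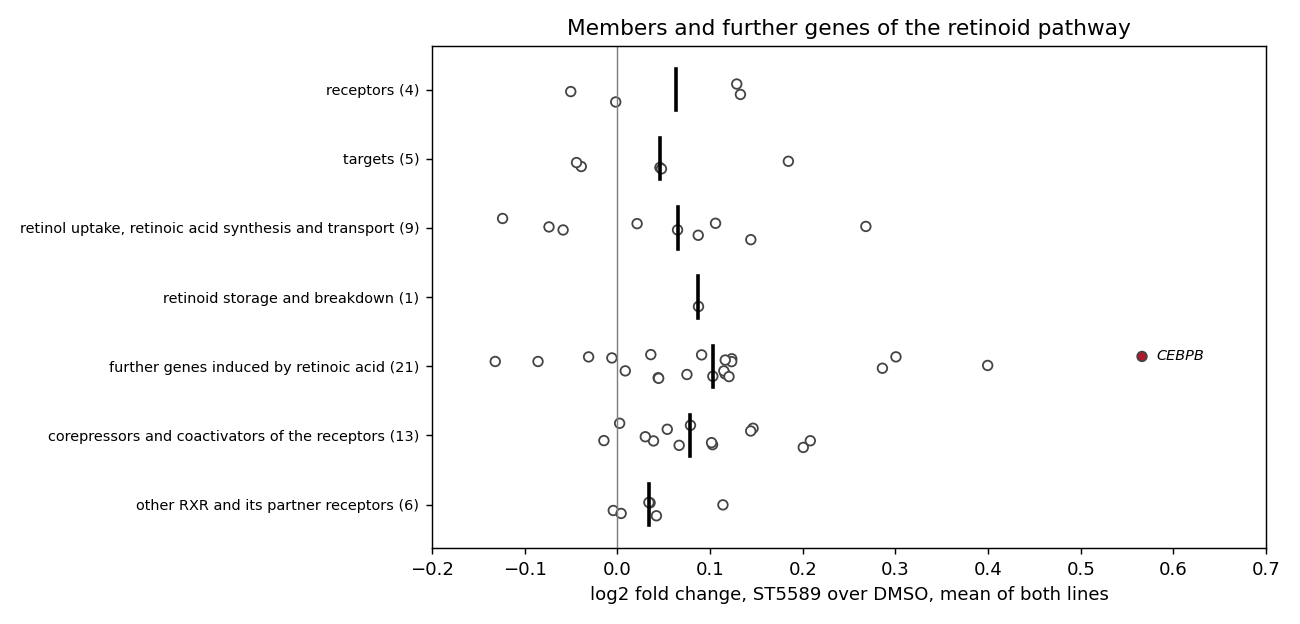
Log2 change under ST5589 in the mean of both lines for every tested gene of each list, 1 point a gene, with the median of the list marked by a bar and genes with a group below background included. The receptors and targets of the first rows lie near 0, and CEBPB at 0.57 is the one gene that passed the limma test.

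Across arrays within a line, the genes most like RXRB were E4F1, TACO1 and UROS, with a smaller Pearson r over the 6 TMD8 and the 6 DOHH2 arrays of 0.98 each. The genes most like RARA were MIR142, at 0.93, and FRMD4A and POLR3E, at 0.90 each. These values describe 6 arrays a line that share extraction, chip and normalization, and they were picked as the highest of all tested genes. In DOHH2 all FRMD4A readings, 5.81 to 6.02, were below background, so its likeness to RARA there rests on background readings. MIR142 lay near background in DOHH2, where it read 5.98 to 6.26.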

How the data were processed

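Total RNA of 12 samples was hybridised to 1-colour Illumina arrays and read out with GenomeStudio, per the submitters' processing notes, with no version given. The deposited raw intensity of each probe carries no detection p-value or control probe, and no further step is stated in the sources used here. The authors also deposited log2 values of the same arrays, which ranked probes as the raw intensities did and served as an alternative. The intensities were background corrected (normexp, offset 50), quantile normalized and log2 transformed in R 4.3.3 with limma 3.58.1. Of 47231 probes, 30113 had 1 gene symbol, 8 several and 17110 none in the platform annotation; those with several or none were not named, and 30074 of 30121 annotated probes matched a current gene. A probe was kept where some group had it above background on each of its 3 arrays (21549 probes, of which 15911 were named), and the brightest of a gene was tested. That gave 11765 genes, of which 3241 had more than 1 such probe.

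One limma fit over all 12 arrays gave each comparison, with Benjamini-Hochberg adjustment over all genes, and was tested on simulated data. Alternatives covered normalization, background, filters, probe choice, the replicate number as a block, the arrays in the fit and each array left out. The members and lists were chosen with earlier results of these data known. Genes named from a further list were those called with treatment, up to 4 by lowest p, or else the 2 with the lowest p in the mean of both lines. Likeness was reported for up to 3 members above background on all 12 arrays, and 2 qualified. Depth is not defined for arrays, whose number limits the precision.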

Additional observations from a re-analysis of the deposited data

How the results depend on the processing

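The count of the 9 retinoid genes called with ST5589 was 0 in TMD8, in DOHH2, in the mean of the lines and in the difference between them under every alternative run, the median scaling, the deposited log2 values and the omission of each array included, although fewer members were tested under stricter filters. Between the lines, 5 genes were called, and leaving out single arrays gave 4 to 5. The filter for probes above background on all 12 arrays gave 1 of the 2 genes it left, RXRB. Among single-gene values none reversed while called. The log2 difference of CD38 in DOHH2 ran from 0.20 with median scaling to 0.40 without array 1 under DMSO, with limma adjusted p from 0.583 to 1. Counts over all genes depended more on the setting. Calls in TMD8 went from 106 to 7 with median scaling and 40 with the replicate block, and in the mean of the lines from 86 to 0 and 46. The replicate number was checked by correlating the deviations of DMSO and ST5589 arrays from their group means. Same-numbered arrays correlated at -0.15, -0.03 and -0.10 in TMD8 and at -0.49, 0.00 and -0.25 in DOHH2. Differently numbered arrays correlated at -0.07 to 0.13 in TMD8 and at -0.53 to 0.56 in DOHH2. With 3 arrays a group these values cannot decide whether the samples were paired. With the replicate block 0 retinoid genes were called with treatment and 5 between the lines. Signals close to background limit RARB, RARG, RXRA, CYP26A1, CRABP2 and TGM2, and in TMD8 also DHRS3 and CD38, for which a change of RNA below detection would not be seen.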
